A study of Homo sapiens with 24 samples.

Results

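TNF, 4 other secreted mediators (IL1B, CXCL8, CXCL1 and CXCL10) and 5 genes of NF-kB control (TNFAIP3, NFKBIA, NFKBIZ, RELB and TRAF1) were followed in 2 human acute myeloid leukaemia cell lines given the RAS inhibitor RMC-7977. The 10 genes were taken by symbol, and all 10 had a row among the 13033 genes of the table. Molm-14 carries an internal tandem duplication of the receptor gene FLT3 (FLT3-ITD), and OCIAML-3 carries NRAS Q61L, a changed RAS protein. Each line was given DMSO, the solvent, or RMC-7977 at 25 nM for 2 or 24 h, and poly(A) RNA was sequenced. RMC-7977 binds RAS proteins in their active, GTP-loaded state. Each of the 6 groups had 4 libraries, except OCIAML-3 at 24 h with 3, because its replicate 3 was not analysed here. Each genotype is represented by 1 line, so genotype and line cannot be told apart. DMSO has no stated time, and the same DMSO libraries serve both drug times. Whether replicates were grown separately is not stated, and the p-values therefore reflect library-to-library spread that may be technical.

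NF-kB transcription factors are dimers of the RELA, RELB, REL, NFKB1 and NFKB2 proteins, held in the cytoplasm by inhibitors such as IkB-alpha, the product of NFKBIA. Signals from TNF, interleukin-1 or Toll-like receptors activate the IkB kinases, the inhibitor is degraded, and the dimers enter the nucleus and induce cytokines, chemokines and their own inhibitors. TNFAIP3 (the ubiquitin-editing protein A20) and NFKBIA close this loop as negative feedback, and the mRNAs of TNF, IL1B and the chemokines are also known to be short-lived and to respond to ERK and p38 signalling. In monocytic cells TNF and interleukin-1 beta are principal inflammatory cytokines, while CXCL8 and CXCL1 attract neutrophils and CXCL10 attracts T cells.

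The mediators fell and stayed low, while the control genes went different ways. TNF dropped to 5.49% of its DMSO mean in Molm-14 and 7.05% in OCIAML-3 within 2 h. IL1B and CXCL8 fell in both lines, CXCL1 fell in OCIAML-3, and CXCL10 fell in Molm-14. TNFAIP3 fell in both lines at 2 h, then rose again in Molm-14 but not in OCIAML-3. RELB fell and TRAF1 rose at 24 h in both lines. NFKBIZ rose in both lines by 24 h, and NFKBIA passed the fold threshold in no comparison of drug with DMSO.

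A gene was called when its limma p-value, adjusted over all 13033 genes, was below 0.05 and its log2 fold change was at least 1 in size, and "rose" and "fell" are used of called genes only. At 2 h in Molm-14, 5 of the 10 genes fell and 0 rose, where 2.98% of all genes were called lower and 4.3% higher. Only 2 (TNF and TNFAIP3) fell with 1 CPM added before the log, because IL1B, CXCL8 and CXCL10 lost their calls. At 24 h in Molm-14, 5 fell and 2 rose, against 6.57% and 11.4% of all genes, and with 1 CPM added 1 rose (NFKBIZ). In OCIAML-3 at 2 h, 5 fell and 1 rose, against 3.35% and 3.23%. In OCIAML-3 at 24 h, 6 fell and 2 rose, against 17.1% and 18.4%. The 9 genes with reads enough for a fold in Molm-14 (all but CXCL1) had a median log2 fold change of -1.74 at 2 h and -1.34 at 24 h, where the median of all genes was 0.0. The 9 with a fold in OCIAML-3 (all but CXCL10) had medians of -2.01 at 2 h and -1.87 at 24 h, where the medians of all genes were 0.02 and 0.01.

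**Figure D1:**
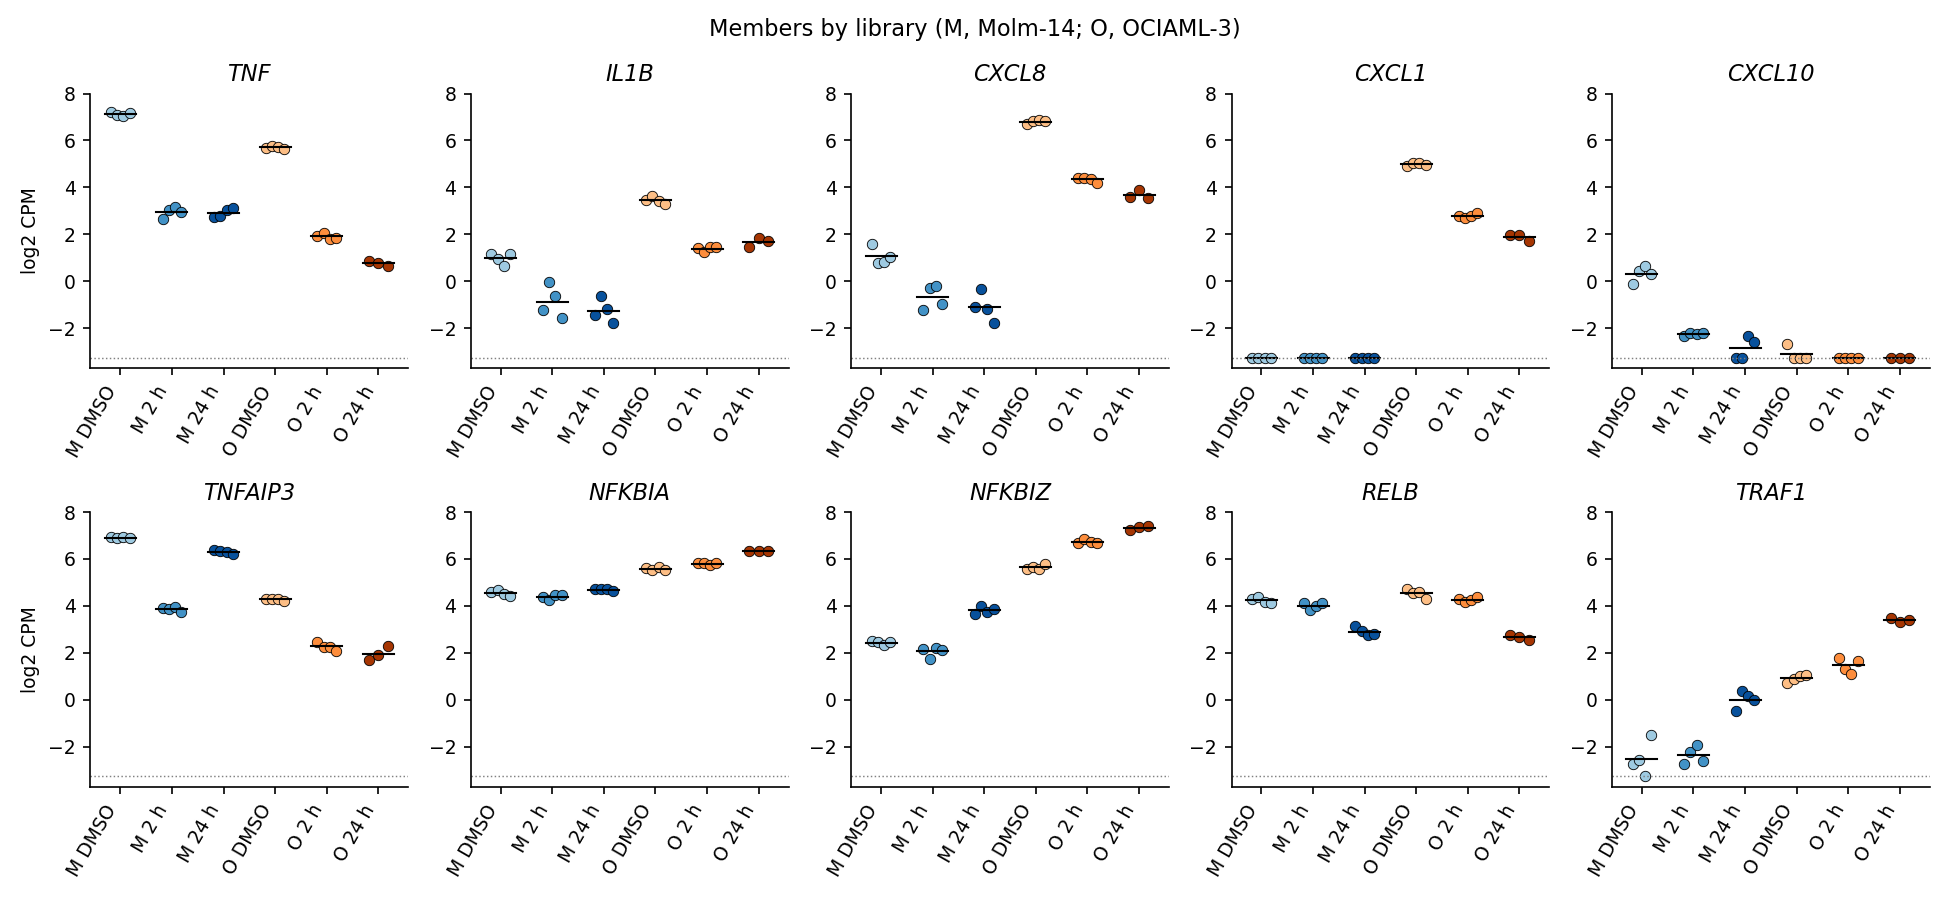
Log2 CPM (vertical axis) of each of the 10 genes in every library, grouped by line (M, Molm-14; O, OCIAML-3) and treatment on the horizontal axis; points are libraries, bars are group means, and the dotted line is the lowest value of the table (log2 CPM -3.26), which stands for 0 reads. TNF is highest in the DMSO groups of both lines, CXCL1 lies on the dotted line in all 12 Molm-14 libraries, and TNFAIP3 is low in Molm-14 at 2 h but not at 24 h.

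NF-kB acts through short kB sites in DNA, so promoter sequence is shown for the 6 genes matching either of 2 kB motifs. TNF, which had the lowest fold changes, is shown too, and its window holds no match to these 2 motifs. RefSeq gave a window of 250 bases before a start site for 9 of the 10 genes in GRCh38.p14. No window was found for RELB, and those of IL1B and TRAF1, which hold no match, are not printed. Capitals mark matches, on either strand, to GGAANTTCC or to the kB decamer consensus, 2 motifs that overlap each other. The CXCL8 stretch ends before the first annotated start of the gene. For TNFAIP3 only the 30 bases that hold its matches are shown. These matches lie 67 to 58 and 55 to 46 bases before its RefSeq start. Both lie after the first annotated start of the gene, at chr6:137867188.
CXCL8, chr4:73740319-73740505, plus strand: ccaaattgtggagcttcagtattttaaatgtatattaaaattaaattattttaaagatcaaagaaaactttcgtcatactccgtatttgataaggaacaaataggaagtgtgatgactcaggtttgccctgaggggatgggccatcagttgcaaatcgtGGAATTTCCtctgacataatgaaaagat
CXCL1, chr4:73869143-73869392, plus strand: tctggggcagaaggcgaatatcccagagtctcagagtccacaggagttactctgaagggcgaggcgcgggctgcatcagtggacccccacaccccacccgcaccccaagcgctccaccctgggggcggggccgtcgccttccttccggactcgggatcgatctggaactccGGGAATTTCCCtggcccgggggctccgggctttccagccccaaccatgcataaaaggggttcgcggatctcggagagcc
CXCL10, chr4:76023498-76023747, minus strand: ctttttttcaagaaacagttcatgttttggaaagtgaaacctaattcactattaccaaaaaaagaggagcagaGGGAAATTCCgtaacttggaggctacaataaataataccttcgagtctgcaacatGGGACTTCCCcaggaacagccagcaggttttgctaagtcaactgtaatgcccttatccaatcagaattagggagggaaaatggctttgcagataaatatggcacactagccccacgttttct
TNFAIP3, chr6:137867186-137867215, plus strand: gactttGGAAAGTCCCgtGGAAATCCCCgg
NFKBIA, chr14:35404750-35404999, minus strand: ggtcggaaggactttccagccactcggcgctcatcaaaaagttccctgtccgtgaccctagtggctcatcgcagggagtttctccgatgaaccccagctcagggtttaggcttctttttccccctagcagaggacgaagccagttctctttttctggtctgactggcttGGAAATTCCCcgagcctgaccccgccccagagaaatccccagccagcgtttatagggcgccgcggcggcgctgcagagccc
NFKBIZ, chr3:101827740-101827989, plus strand: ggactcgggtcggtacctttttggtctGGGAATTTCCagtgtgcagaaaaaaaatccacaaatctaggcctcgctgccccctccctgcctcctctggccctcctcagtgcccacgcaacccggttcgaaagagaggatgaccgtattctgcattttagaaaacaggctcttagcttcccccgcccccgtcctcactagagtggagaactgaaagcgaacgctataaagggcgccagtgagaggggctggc
TNF, chr6:31575315-31575564, plus strand: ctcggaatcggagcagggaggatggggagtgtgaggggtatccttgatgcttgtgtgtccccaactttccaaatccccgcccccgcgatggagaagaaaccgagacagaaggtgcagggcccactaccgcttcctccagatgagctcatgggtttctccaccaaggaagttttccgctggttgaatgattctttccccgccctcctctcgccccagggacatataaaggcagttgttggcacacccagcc

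GGAANTTCC was found in the windows of CXCL8, CXCL1, CXCL10, NFKBIA and NFKBIZ, and in 0.826% of all 35116 windows. The decamer consensus was found for CXCL1, CXCL10, TNFAIP3, NFKBIA and NFKBIZ, and in 5.21% of all windows. CXCL8 also holds TGANTCA, the site of AP-1 factors, 137 to 131 bases before its RefSeq start, which 6.57% of all windows hold. The early growth response factor motif GCGNGGGCG was found for TNF, 173 to 165 bases before its RefSeq start, and in 8.41% of all windows. It was also found in the second RefSeq window of NFKBIZ, which is not shown. That window holds a match to the decamer consensus too, 239 to 230 bases before its start. CXCL10 holds the core of the interferon-stimulated response element 221 to 212 bases before its RefSeq start, which 3.02% of all windows hold. A CArG box, the site of serum response factor, was in none of these windows and in 1.16% of all. The TNF window holds no match to either kB motif, which does not show that TNF lacks kB sites. Sites further from the start, or that differ from these motifs, were not searched. The windows with matches belong to genes that fell (CXCL8, CXCL1, CXCL10, TNFAIP3), to NFKBIZ, which rose, and to NFKBIA. The IL1B window and the 3 TRAF1 windows hold no match to any of the motifs searched. A match is a description of these letters and not a measured site.

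TNF (ENSG00000232810.3, chr6:31575567-31578336 in GRCh38, plus strand, protein coding) encodes the cytokine that gives the pathway its name. In Molm-14 its libraries held 147, 136, 133 and 144 CPM in DMSO, 6.23, 8.11, 8.86 and 7.55 CPM at 2 h, and 6.61, 6.79, 8.12 and 8.54 CPM at 24 h. CPM, the authors' unit, scales reads to the effective library size, and it is given here with their small prior taken off so that 0 reads gives 0. Every treated library lay far below every DMSO library, and the drug groups of both times overlapped. The log2 fold change was -4.18 ± 0.10 (SE) at 2 h (limma adjusted p = 4.1e-25) and -4.21 ± 0.10 at 24 h (limma adjusted p = 1e-25). Fold changes are on the authors' log2 scale, whose prior understates changes of genes with few reads.

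In OCIAML-3, TNF held 51.2, 54.5, 53.5 and 49.1 CPM in DMSO, 3.68, 4.09, 3.39 and 3.53 CPM at 2 h, and 1.73, 1.6 and 1.44 CPM at 24 h. The 3 groups did not overlap, and the level stepped down from DMSO to 2 h and from 2 h to 24 h. The log2 fold change against DMSO was -3.79 ± 0.10 at 2 h and -4.95 ± 0.10 at 24 h (limma adjusted p = 6.8e-24 and 2.2e-27). Between 2 and 24 h TNF fell by 1.16 in OCIAML-3 (limma adjusted p = 1.8e-11), while the same step was -0.03 ± 0.10 in Molm-14 (limma adjusted p = 0.81). Ordered by level, Molm-14 DMSO was highest, then OCIAML-3 DMSO, then both Molm-14 drug groups together, then OCIAML-3 at 2 h and at 24 h.

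LTB and LST1, which lie beside TNF on chromosome 6, had lower mean levels in every drug group than in DMSO. LTB (lymphotoxin beta, chr6:31580525-31582522, minus strand) had means of 21.0, 3.34 and 4.67 CPM in Molm-14, falling by 2.64 at 2 h and 2.14 at 24 h. In OCIAML-3 its means were 1.96, 0.732 and 1.27 CPM, with log2 fold changes of -1.29 (called) and -0.60 (not called). LST1 (leukocyte specific transcript 1, chr6:31586124-31588909, plus strand) fell at 24 h only, by 1.33 in Molm-14 and 1.61 in OCIAML-3, with values of -0.94 and -0.83 at 2 h. LTA was not analysed here.

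IL1B (ENSG00000125538.11, chr2:112829751-112836903, minus strand) encodes interleukin-1 beta. Molm-14 held little of it, with 2.16, 1.82, 1.46 and 2.11 CPM in DMSO, 0.319, 0.876, 0.540 and 0.230 CPM at 2 h, and 0.260, 0.534, 0.333 and 0.190 CPM at 24 h. The DMSO libraries lay above all treated ones, and the drug times overlapped. OCIAML-3 held 10.9, 12.4, 10.4 and 9.72 CPM in DMSO, 2.56, 2.28, 2.63 and 2.66 CPM at 2 h, and 2.67, 3.47 and 3.22 CPM at 24 h. Here too DMSO stood apart, and the 24 h libraries lay just above those of 2 h, a difference of 0.29 ± 0.26 that did not pass (limma adjusted p = 0.32). This SE draws on the spread of all groups of both lines. At 2 and 24 h the SD of log2 CPM was 0.68 and 0.47 in Molm-14, against 0.10 and 0.19 in OCIAML-3. The log2 fold changes were -1.85 and -2.24 at 2 and 24 h in Molm-14 and -2.05 and -1.77 in OCIAML-3, each with limma adjusted p of 4.3e-07 or less. The 4 Molm-14 libraries of a group held 135, 37 and 25 reads in all in DMSO, at 2 h and at 24 h. With 1 CPM added before the log, the Molm-14 change at 2 h was -0.97 and so lost its call.

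CXCL8 (ENSG00000169429.10, chr4:73740506-73743716, plus strand) encodes interleukin-8, the main neutrophil attractant. OCIAML-3 held 104, 112, 116 and 114 CPM in DMSO, 20.8, 21.3, 20.4 and 18.3 CPM at 2 h, and 11.8, 14.6 and 11.5 CPM at 24 h. No groups overlapped, and the log2 fold change was -2.46 ± 0.23 at 2 h and -3.14 ± 0.25 at 24 h (limma adjusted p = 1.1e-09 and 1.2e-11). Molm-14 held 2.89, 1.63, 1.69 and 1.92 CPM in DMSO, 0.319, 0.712, 0.757 and 0.402 CPM at 2 h, and 0.364, 0.694, 0.333 and 0.190 CPM at 24 h. The gene fell there as well, by 1.74 and 2.15 (limma adjusted p = 4.2e-07 and 5.3e-09), and the drug times overlapped. With 1 CPM added, the Molm-14 change at 2 h was -0.96 and lost its call.

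CXCL1 (ENSG00000163739.4, chr4:73869393-73871242, plus strand), another neutrophil attractant of the same chemokine cluster, had reads in OCIAML-3 only. Its libraries held 30.1, 32.2, 32.9 and 30.6 CPM in DMSO, 6.85, 6.46, 6.82 and 7.31 CPM at 2 h, and 3.84, 3.79 and 3.15 CPM at 24 h. The 3 groups stood apart, and the gene fell by 2.18 ± 0.17 at 2 h and 3.10 ± 0.19 at 24 h (limma adjusted p = 5e-12 and 1.4e-15). All 12 Molm-14 libraries held 0 reads, which allows up to 0.0423 CPM in the DMSO group (3 reads over the group, counting error only). In DMSO, OCIAML-3 was at least 747-fold higher. CXCL2 and CXCL3 were not analysed here.

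CXCL10 (ENSG00000169245.5, chr4:76021117-76023497, minus strand), an interferon-induced T cell attractant, had nearly all of its reads in Molm-14. Molm-14 held 0.827, 1.24, 1.46 and 1.12 CPM in DMSO, 0.0912, 0.110, 0.108 and 0.115 CPM at 2 h, and 0, 0, 0.0950 and 0.0633 CPM at 24 h. These are 81, 8 and 3 reads per group. Every DMSO library was above every treated one, and the log2 fold change at 2 h was -2.56 ± 0.32 (limma adjusted p = 5e-08), or -0.96 and not called with 1 CPM added. As a ratio of summed reads, the gene was 10.8-fold lower at 2 h (95% exact interval 5.24 to 25.9) and 28.4-fold lower at 24 h (9.37 to 140), for counting error only. OCIAML-3 held 1 read in its 4 DMSO libraries and 0 in all 7 treated ones, so no change with the drug was detectable there. In DMSO, Molm-14 was 91.6-fold higher than OCIAML-3 (16 to 3660). The gene lies inside ART3 on the opposite strand, and without a stated strand setting reads of the pair cannot be told apart. ART3 held 0.765, 0.486 and 0.0435 CPM in DMSO, at 2 h and at 24 h in Molm-14, and 9.47, 4.81 and 1.09 CPM in OCIAML-3, where CXCL10 was near 0.

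TNFAIP3 (ENSG00000118503.14, chr6:137867188-137883312, plus strand) encodes A20, which removes ubiquitin chains that NF-kB signalling needs. In Molm-14 it held 121, 119, 121 and 120 CPM in DMSO, 14.7, 14.6, 15.3 and 13.2 CPM at 2 h, and 81.9, 80.2, 79.3 and 73.2 CPM at 24 h. The groups did not overlap, and the level at 24 h was most of the way back, at 65.4% of the DMSO mean after 12.0% at 2 h. TNFAIP3 fell by 3.05 ± 0.09 at 2 h (limma adjusted p = 4.7e-23), then rose by 2.44 ± 0.09 between 2 and 24 h (limma adjusted p = 6.7e-21). Its remaining difference from DMSO at 24 h was -0.61 ± 0.09, short of the fold threshold (limma adjusted p = 1.6e-07).

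In OCIAML-3, TNFAIP3 held 19.8, 19.5, 19.8 and 18.2 CPM in DMSO, 5.46, 4.69, 4.70 and 4.14 CPM at 2 h, and 3.18, 3.63 and 4.76 CPM at 24 h. All treated libraries were low, and the times overlapped. The log2 fold change was -2.01 ± 0.09 at 2 h and -2.31 ± 0.09 at 24 h (limma adjusted p = 1.9e-18 and 2.9e-20), and the step from 2 to 24 h was -0.31 ± 0.09. By level, Molm-14 DMSO came first, then Molm-14 at 24 h, OCIAML-3 DMSO, Molm-14 at 2 h, and last both OCIAML-3 drug groups. DUSP6, a phosphatase gene that ERK signalling induces, held 43.9, 2.75 and 42.4 CPM in DMSO, at 2 h and at 24 h in Molm-14, and 11.8, 0.201 and 0.170 CPM in OCIAML-3. EGR1, another gene that ERK signalling induces, held 53.6, 1.22 and 0.962 CPM in Molm-14 and 41.1, 3.26 and 1.76 CPM in OCIAML-3. Of 6 such ERK-induced genes, all 6 fell at 2 h in both lines, and 4 fell at 24 h in Molm-14 and 6 in OCIAML-3. The shares of all genes called lower were 2.98% and 3.35% at 2 h in Molm-14 and OCIAML-3, and 6.57% and 17.1% at 24 h. At 24 h in Molm-14, DUSP6 like TNFAIP3 was not called against DMSO, while EGR1 and TNF fell.

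NFKBIA (ENSG00000100906.10, chr14:35401511-35404749, minus strand), the gene of IkB-alpha, moved little in Molm-14 and was higher with the drug in OCIAML-3, short of the fold threshold. It held 23.7, 25.5, 22.6 and 21.1 CPM in Molm-14 DMSO, 20.6, 18.7, 22.1 and 21.9 CPM at 2 h, and 26.5, 26.4, 25.8 and 24.7 CPM at 24 h. The DMSO libraries overlapped both drug groups, and the log2 fold changes were -0.16 ± 0.06 and 0.16 ± 0.06. OCIAML-3 held 48.9, 45.3, 50.1 and 46.1 CPM in DMSO, 56.1, 55.8, 53.3 and 56.8 CPM at 2 h, and 81.5, 81.0 and 80.1 CPM at 24 h. These groups were ordered without overlap, at 0.22 ± 0.06 and 0.76 ± 0.06 above DMSO (limma adjusted p = 0.0013 and 1.3e-12), short of the fold threshold.

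NFKBIZ (ENSG00000144802.11, chr3:101827991-101861022, plus strand) encodes IkB-zeta, a nuclear protein that helps NF-kB switch on a secondary set of genes. OCIAML-3 held 47.4, 50.1, 48.0 and 55.0 CPM in DMSO, 104, 114, 106 and 101 CPM at 2 h, and 152, 164 and 169 CPM at 24 h. The groups rose in order without overlap, by 1.08 ± 0.08 at 2 h and 1.69 ± 0.09 at 24 h (limma adjusted p = 1.6e-12 and 3.6e-17). Molm-14 held 5.51, 5.40, 4.98 and 5.39 CPM in DMSO, 4.38, 3.23, 4.54 and 4.25 CPM at 2 h, and 12.5, 16, 13.4 and 14.4 CPM at 24 h. Its 2 h libraries lay below DMSO (-0.38 ± 0.08, not called), and at 24 h the gene rose by 1.38 ± 0.08 (limma adjusted p = 1.4e-15). Every OCIAML-3 library was above every Molm-14 library.

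RELB (ENSG00000104856.13, chr19:45001430-45038198, plus strand) encodes the NF-kB subunit of the slower, non-canonical branch. Molm-14 held 19.4, 20.8, 17.9 and 17.4 CPM in DMSO, 17.4, 14.1, 15.7 and 17.3 CPM at 2 h, and 8.69, 7.58, 6.64 and 6.77 CPM at 24 h. OCIAML-3 held 26.0, 23.2, 23.8 and 19.7 CPM in DMSO, 19.7, 17.9, 18.8 and 20.4 CPM at 2 h, and 6.60, 6.30 and 5.77 CPM at 24 h. In both lines the 2 h libraries overlapped DMSO and only the 24 h libraries stood apart below. RELB fell by 1.34 ± 0.09 at 24 h in Molm-14 and by 1.87 ± 0.10 in OCIAML-3 (limma adjusted p = 4.7e-14 and 4.6e-17), after -0.22 ± 0.09 and -0.27 ± 0.09 at 2 h. Between 2 and 24 h it fell by 1.11 ± 0.09 and 1.61 ± 0.10.

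TRAF1 (ENSG00000056558.10, chr9:120902393-120929173, minus strand) encodes an adaptor of TNF receptors. OCIAML-3 held 1.53, 1.76, 1.92 and 1.96 CPM in DMSO, 3.34, 2.34, 2.04 and 3.09 CPM at 2 h, and 11, 9.83 and 10.4 CPM at 24 h. The 2 h libraries lay just above DMSO without passing the test (0.55 ± 0.28, limma adjusted p = 0.085), and at 24 h the gene rose by 2.48 ± 0.30 (limma adjusted p = 7.2e-09). Molm-14 held 0.0460, 0.0651, 0 and 0.248 CPM in DMSO, 0.0456, 0.110, 0.162 and 0.0575 CPM at 2 h, and 0.625, 1.18, 1.00 and 0.886 CPM at 24 h, which are 6, 7 and 69 reads. The 2 h ratio of summed reads was 1.09 (95% exact interval 0.314 to 3.93). Only the 24 h libraries stood apart, and the gene rose by 2.52 ± 0.28 (limma adjusted p = 1.4e-09). By summed reads that is 10.9-fold (95% exact interval 4.78 to 30.9). With 1 CPM added it was 0.82 and lost its call.

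**Figure D2:**
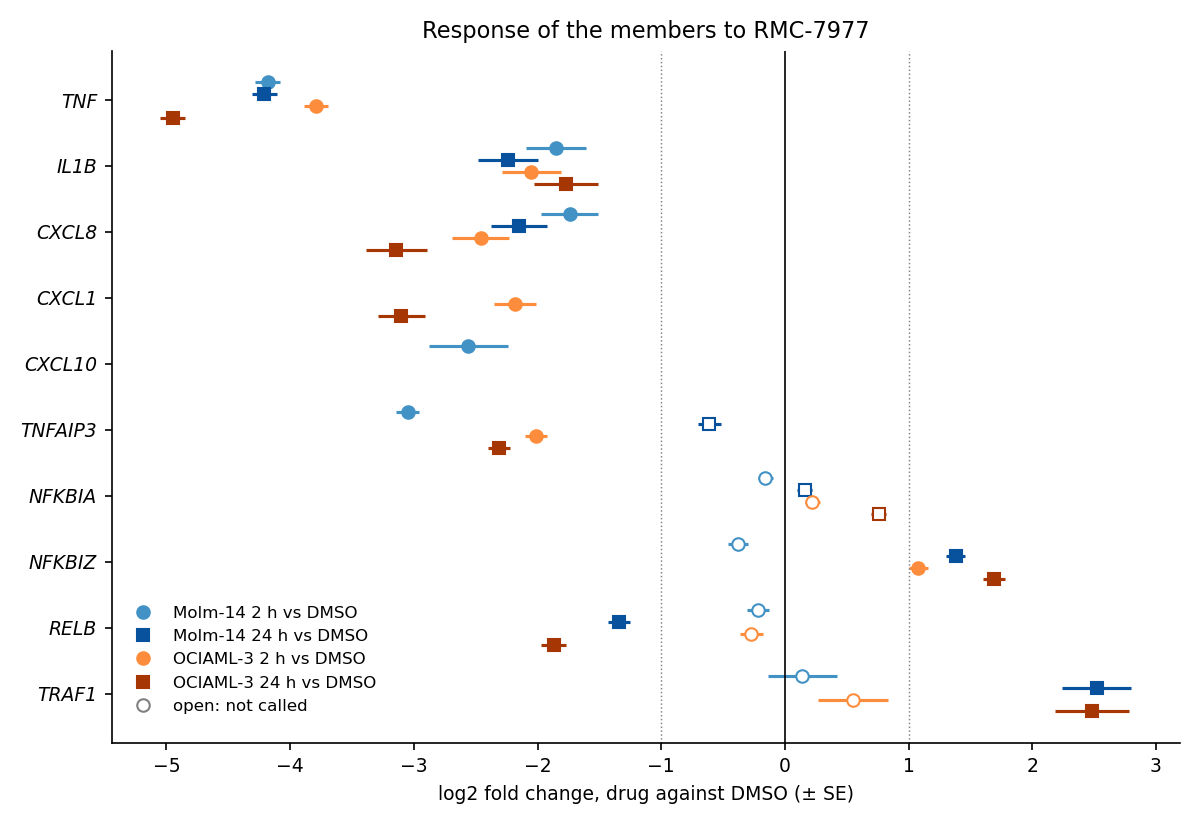
Log2 fold change of drug against DMSO (horizontal axis, bars are SE) for each gene, line and time, with filled symbols for called genes, open symbols for genes not called and dotted lines at the fold threshold; genes with 3 or fewer reads in a group are left out. TNF has the lowest values, from -3.79 to -4.95, and TRAF1 at 24 h the highest, 2.52 and 2.48.

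Between 2 and 24 h of drug, 3 of the 10 genes rose in Molm-14 (NFKBIZ, TNFAIP3 and TRAF1) and RELB fell, where 7.25% of all genes were called higher and 3.38% lower. The ratio of summed reads was 10.0 for TRAF1 (95% exact interval 4.62 to 25.9). In OCIAML-3, TRAF1 rose by 1.93 ± 0.30 and RELB and TNF fell, where 11.6% were called higher and 10.9% lower. CXCL8 and CXCL1 were lower at 24 h than at 2 h in OCIAML-3 by -0.68 and -0.92, short of the fold threshold, with no overlap. With 1 CPM added, TRAF1 in Molm-14 (0.81) and TNF in OCIAML-3 (-0.85) lost their calls between these times.

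The lines were compared directly by testing the difference of their responses for the 8 genes with reads in every group, as OCIAML-3 minus Molm-14. At 2 h NFKBIZ and TNFAIP3 passed with 1.46 ± 0.12 and 1.04 ± 0.12 (limma adjusted p = 1.8e-11 and 3.5e-08), and 0 of the 8 were called lower, where 2.12% of all genes were called higher and 3.52% lower. NFKBIZ rose in OCIAML-3 but not in Molm-14 at that time, and TNFAIP3 fell less deeply in OCIAML-3. Without replicate 1 of OCIAML-3 at 2 h the TNFAIP3 difference was 0.98. At 24 h only TNFAIP3 passed, with -1.70 ± 0.13 (limma adjusted p = 7.2e-13), against 9.75% of all genes called lower and 8.09% higher. The sign of its difference thus turned between the times. TNF differed by 0.39 ± 0.13 at 2 h and -0.74 ± 0.14 at 24 h (limma adjusted p = 0.022 and 3.7e-05), both short of the fold threshold. CXCL8 differed by -0.98 ± 0.34 at 24 h, and leaving out any 1 of 5 libraries (Molm-14 DMSO replicate 1, Molm-14 24 h replicates 3 and 4, OCIAML-3 DMSO replicate 1 and OCIAML-3 24 h replicate 2) took it past the threshold, to between -1.02 and -1.21. At an adjusted p below 0.05 with no fold threshold, 4 of the 8 differed at 2 h and 6 at 24 h, where 38.7% and 65.4% of all genes did. Both counts are near the shares of all genes. For IL1B and TRAF1 no difference passed, with values of -0.20 ± 0.35 and 0.41 ± 0.39 at 2 h and 0.48 ± 0.36 and -0.04 ± 0.40 at 24 h. With 1 CPM added, the 24 h differences of IL1B and TRAF1 turned to -0.41 and 1.22, the latter called, and those of CXCL8 were -1.44 at 2 h and -1.93 at 24 h, both called. Errors of this width do not show that the lines respond alike.

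**Figure D3:**
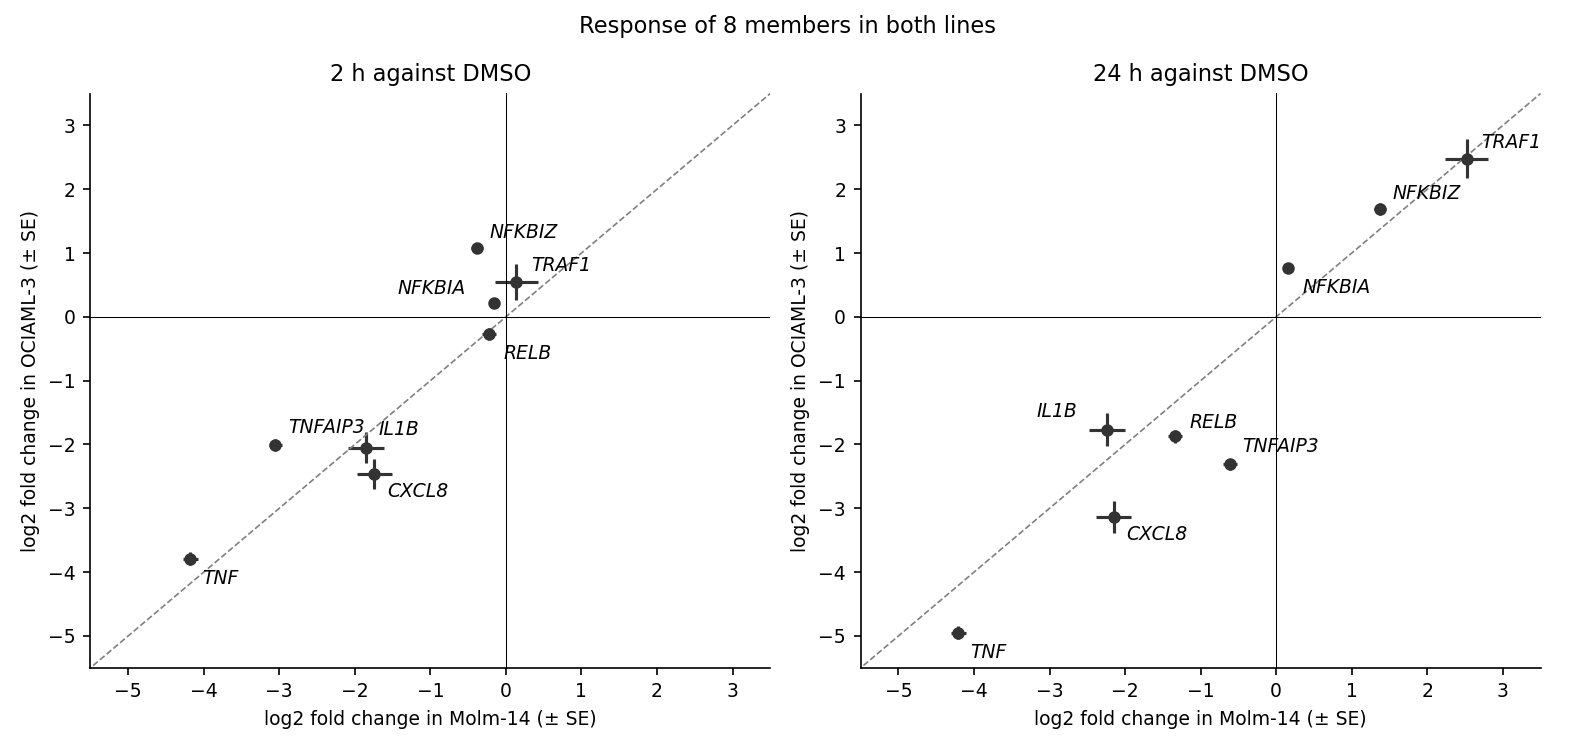
Log2 fold change against DMSO in OCIAML-3 (vertical axis) and in Molm-14 (horizontal axis) for 8 genes at 2 h (left) and 24 h (right), with SE bars and a dashed line of equal response. TNFAIP3 lies above the dashed line at 2 h (difference 1.04) and below it at 24 h (difference -1.70).

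In DMSO the lines already differed in 9 of the 10 genes, 6 higher and 3 lower in OCIAML-3, where 17.9% of all genes were called higher and 12.2% lower. OCIAML-3 held more CXCL8 (5.74 ± 0.23), TRAF1 (3.43 ± 0.28), NFKBIZ (3.21 ± 0.08), IL1B (2.47 ± 0.24), NFKBIA (1.03 ± 0.06) and CXCL1. By summed reads TRAF1 was 21.2-fold higher (95% exact interval 9.51 to 58.8). Molm-14 held more TNFAIP3 (-2.63 ± 0.09), TNF (-1.43 ± 0.10) and CXCL10. RELB differed by 0.29 ± 0.09 with overlapping libraries. NFKBIA stood close to the fold threshold, and its difference was 0.93 under median-of-ratios scaling and 0.99 without replicate 4 of Molm-14 DMSO.

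Other cytokine ligands were found both among genes that rose and among genes that fell. Among 36 further cytokine and chemokine genes, 15 had a row. At 2 h, 1 rose and 3 fell in Molm-14, and 1 rose and 2 fell in OCIAML-3. At 24 h, 6 rose and 2 fell in Molm-14 (median 0.28) and 8 rose and 2 fell in OCIAML-3 (median 1.03), where the medians of all genes were 0.0 and 0.01. Of all genes, 4.3% were called higher and 2.98% lower in Molm-14 at 2 h and 11.4% and 6.57% at 24 h. In OCIAML-3 these shares were 3.23% and 3.35% at 2 h and 18.4% and 17.1% at 24 h. TNFSF9, the ligand of the T cell receptor 4-1BB, had means of 27.1, 59.3 and 64.2 CPM in Molm-14 (DMSO, 2 h, 24 h) and 25.5, 50.4 and 54.3 CPM in OCIAML-3, and rose in each comparison but OCIAML-3 at 2 h (0.98). TNFSF13B, the B cell survival factor BAFF, rose at 24 h by 1.01 in Molm-14 and 2.08 in OCIAML-3. IL1RN, the antagonist of the interleukin-1 receptor, fell by 2.02 at 2 h in Molm-14 and was at -0.11 at 24 h, with -0.94 and -0.02 in OCIAML-3. CCL5, a T cell attractant, fell by 1.72 at 24 h in OCIAML-3, with -0.66 in Molm-14.

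Of 23 receptor genes, 16 had a row. At 2 h, 0 rose and 3 fell in Molm-14, where 4.3% of all genes were called higher and 2.98% lower. In OCIAML-3, 0 rose and 2 fell at 2 h, where these shares were 3.23% and 3.35%. At 24 h, 4 rose and 0 fell in each line, with medians of 0.59 and 0.46. Of all genes, 11.4% were called higher and 6.57% lower at that time in Molm-14, and 18.4% and 17.1% in OCIAML-3. TNFRSF1A, the broadly expressed TNF receptor, was called in no comparison with DMSO and ran from 82.7 to 95.9 CPM in the Molm-14 groups and from 123 to 152 CPM in those of OCIAML-3. TNFRSF1B, the inducible TNF receptor of immune cells, had means of 15.1, 12.6 and 121 CPM in Molm-14, a rise of 3.0 at 24 h (limma adjusted p = 2.5e-27). In OCIAML-3 they were 80.8, 47.4 and 123 CPM, with 0.61 at 24 h, and the lines differed by -2.39 (limma adjusted p = 2.3e-20). CXCR4, a chemokine receptor that holds leukaemia cells in the marrow, rose by 1.49 at 24 h in Molm-14, with 0.96 in OCIAML-3. TLR6 rose by 1.69 at 24 h in OCIAML-3, with 0.97 in Molm-14, and the death receptor TNFRSF10A fell by 1.29 at 2 h in OCIAML-3, with -0.96 in Molm-14.

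Of 29 adaptors, ubiquitin ligases and kinases between receptor and NF-kB, 27 had a row. In Molm-14, 1 rose and 0 fell at 2 h, and 1 rose and 1 fell at 24 h. In OCIAML-3, 1 rose and 1 fell at 2 h, and 5 rose and 4 fell at 24 h, with a median of 0.43. The shares of all genes called higher and lower in Molm-14 were 4.3% and 2.98% at 2 h and 11.4% and 6.57% at 24 h. In OCIAML-3 they were 3.23% and 3.35% at 2 h. The 24 h counts in OCIAML-3 are near the shares of all genes, 18.4% called higher and 17.1% lower. TRAF3, which restrains the non-canonical branch, fell by 1.25 at 24 h in Molm-14 and by 1.11 and 2.50 at 2 and 24 h in OCIAML-3. MAP3K8, the kinase TPL2 that links this pathway to ERK, rose by 1.31 at 2 h in Molm-14 and by 1.02 and 2.20 at 2 and 24 h in OCIAML-3, with 0.87 in Molm-14 at 24 h. IKBKB, an IkB kinase, and IRAK4 rose by 1.38 and 1.09 at 24 h in OCIAML-3, while IRAK1 fell there by 1.23. IRAK1 and IRAK4 relay signals from interleukin-1 and Toll-like receptors.

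Among NF-kB subunits and inhibitors other than the 10 genes (14 of 15 with a row), 0 fell in any comparison with DMSO. Genes called lower made up 2.98% of all genes at 2 h and 6.57% at 24 h in Molm-14, and 3.35% and 17.1% in OCIAML-3. A count of 0 among 14 genes is near the smaller of these shares. At 2 h, 1 rose in Molm-14 and 0 in OCIAML-3, where 4.3% and 3.23% of all genes were called higher. At 24 h, 3 rose in each line, where 11.4% of all genes were called higher in Molm-14 and 18.4% in OCIAML-3. The OCIAML-3 count is thus near the share of all genes. NFKB1, RELA and REL were called in none of these comparisons, with values from -0.44 to 0.55. NFKB2, the partner of RELB, rose by 1.07 at 24 h in OCIAML-3 (19.9 to 41.8 CPM), with -0.06 in Molm-14, and the lines differed by 1.12 (limma adjusted p = 1.3e-11). BCL3, a nuclear IkB-like co-activator, rose by 1.10 and 1.35 at 2 and 24 h in Molm-14 and by 1.75 at 24 h in OCIAML-3. CYLD, a deubiquitinase that restrains the pathway, rose at 24 h by 1.42 in Molm-14 and 1.16 in OCIAML-3. TNIP1, a binding partner of A20, rose by 1.17 at 24 h in Molm-14, with 0.18 in OCIAML-3.

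Other NF-kB target genes (20 of 24 with a row) moved in both directions. In Molm-14, 1 rose and 3 fell at 2 h and 0 rose and 3 fell at 24 h, with medians of -0.16 and -0.12. In OCIAML-3, 1 rose and 5 fell at 2 h and 4 rose and 7 fell at 24 h, with medians of -0.41 and -0.19. Of all genes, 3.23% were called higher and 3.35% lower at 2 h and 18.4% and 17.1% at 24 h in OCIAML-3. In Molm-14 these shares were 4.3% and 2.98% at 2 h and 11.4% and 6.57% at 24 h. F3, the gene of tissue factor, had means of 121, 10.1 and 113 CPM in Molm-14, a fall of 3.56 at 2 h and a difference of -0.10 at 24 h. In OCIAML-3 its means were 9.63, 4.08 and 2.89 CPM, falls of 1.22 and 1.70. TNFAIP2, a TNF-induced gene, rose by 2.06 at 2 h in Molm-14 (75.9 to 316 CPM) and by 1.72 at 24 h in OCIAML-3. SQSTM1, an autophagy receptor, rose by 1.48 at 24 h in OCIAML-3, with 0.12 in Molm-14. MARCKSL1 fell at 24 h by 1.20 in Molm-14 and 2.95 in OCIAML-3.

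Of 16 genes that control the decay of cytokine mRNAs or the release of the mature proteins, all with a row, 0 rose and 1 fell in Molm-14 at 2 h and 1 rose and 0 fell at 24 h. In OCIAML-3, 0 rose and 2 fell at 2 h, and 2 rose and 2 fell at 24 h. The shares of all genes called higher and lower in Molm-14 were 4.3% and 2.98% at 2 h and 11.4% and 6.57% at 24 h. In OCIAML-3 they were 3.23% and 3.35% at 2 h and 18.4% and 17.1% at 24 h. ZFP36 (tristetraprolin), which binds AU-rich elements of TNF mRNA and speeds its decay, rose by 1.16 at 24 h in OCIAML-3 (108 to 243 CPM), with 0.25 to 0.32 in the other comparisons. NLRP3, the inflammasome sensor needed to release interleukin-1 beta, fell by 1.68 and 1.33 at 2 h in Molm-14 and OCIAML-3, and was at -0.21 and -0.55 at 24 h. ELAVL1 and KHSRP, which stabilise and destabilise such mRNAs, fell by 1.38 and 1.27 at 24 h in OCIAML-3.

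Interferon genes were added because CXCL10 is an interferon target. Of 8 with a row, 2 rose at 2 h and 5 at 24 h in Molm-14, 4 and 5 rose in OCIAML-3, and 0 fell. At 2 h, 4.3% of all genes were called higher and 2.98% lower in Molm-14, and 3.23% and 3.35% in OCIAML-3. The medians at 24 h were 1.24 and 1.94. Genes called higher and lower at 24 h made up 11.4% and 6.57% of all in Molm-14, and 18.4% and 17.1% in OCIAML-3. STAT2, IRF9, IRF7 and OAS1 rose at 24 h in Molm-14 by 1.66, 1.78, 1.56 and 1.10, and in OCIAML-3 by 3.5, 1.81, 2.06 and 2.92.

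**Figure D4:**
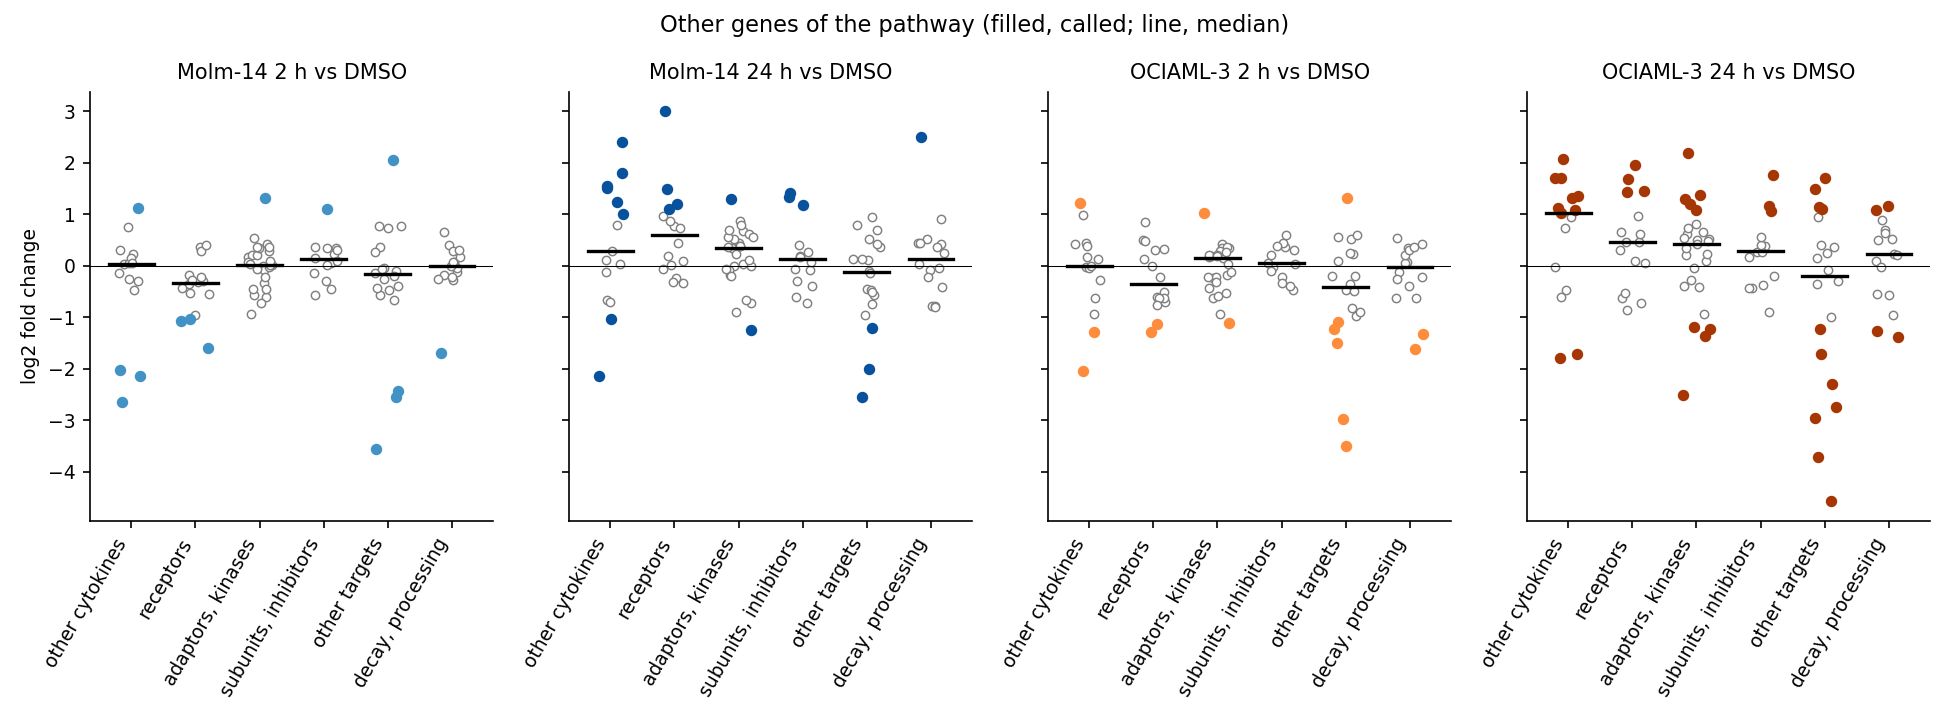
Log2 fold change against DMSO (vertical axis) of the other pathway genes, by list (horizontal axis), line and time, with 1 point per gene, filled where called, and a line at the list's median. At 24 h in OCIAML-3 the other cytokines have a median of 1.03 and the other targets one of -0.19.

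The genes whose pattern over the 23 libraries was most like that of a member were found by Pearson's r of log2 CPM among 12018 genes with at least 5 CPM in a group, as a description. All share the same libraries, and differences between lines and drug groups alone can give a high r. For TNF they were FAM98A (0.985), ZPR1 (0.984) and NMD3 (0.983). FAM98A had means of 63.0, 33.5 and 28.8 CPM in the Molm-14 groups and 50.5, 26.6 and 22.2 CPM in those of OCIAML-3. For TNFAIP3 they were F3 (0.978), WAKMAR2 (0.973) and ZNF485 (0.967). WAKMAR2 is a noncoding RNA gene that overlaps the TNFAIP3 start on the opposite strand in RefSeq, so its reads cannot be told apart from those of TNFAIP3 without a stated strand setting. For TRAF1 they were NPC2 (0.98), ANKRD13C-DT (0.979) and NLRP1 (0.978).

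Effective library sizes, recovered from the spacing of low values, ran from 15.3 M to 22.4 M reads (M, 1e6). All 10 myeloid markers looked for (among them PTPRC, CD33, SPI1 and MPO) had a row. Their summed level ran from 1120 to 1180 CPM in Molm-14 DMSO, 1100 to 1240 at 2 h and 1640 to 1710 at 24 h, and from 2200 to 2350, 2230 to 2400 and 6620 to 7060 CPM in OCIAML-3. In Molm-14, 9, 9 and 8 of the 10 had a mean of at least 1 CPM in DMSO, at 2 h and at 24 h. In OCIAML-3 these numbers were 10, 9 and 9, so the sum does not show that each marker rose. The summed level was higher in the 24 h groups of both lines, in which RELB fell and TRAF1 rose. NFKBIZ was higher there too, but in OCIAML-3 it had already risen at 2 h, when the sum overlapped that of DMSO. The falls of TNF, IL1B and CXCL8 were present at 2 h as well. The part of the marker level in the 24 h results was not tested. Of 8 lymphoid, 8 epithelial or stromal and 6 erythroid markers, 1 (NKG7), 1 (COL1A2) and 0 had a row. In these cultures fewer cells that express a gene and less RNA per cell cannot be told apart.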

How the data were processed

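The table holds values on a log2 CPM scale deposited by the authors for 23 of 24 labelled libraries. Trimmomatic 0.36, STAR 2.7.8a, RSEM 1.3.3, edgeR 3.24.3, limma 3.38.3, MultiQC 1.28 and GRCh38 are named, in no stated order, per the submitters' processing notes. Neither a strand setting nor a low-level filter is given in the sources used here. All libraries share a lowest value of -3.2554, which is 0.10472 CPM and was taken as the prior. Library sizes were recovered from the steps between low values, and 75.2% to 82.8% of values worth at most 20 reads came within 0.05 of a whole number.

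Limma 3.58.1 in R 4.3.3 fitted 6 group means to the deposited values over all 13033 genes (trend and robust options), with Benjamini-Hochberg adjustment over all genes in each comparison. The fitting was tested on simulated data. Where a group had 10 or fewer reads, ratios of summed reads were computed with exact 95% intervals, for counting error only. Gene positions are from GENCODE v29.

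The 10 genes and all lists were chosen with earlier results of these data known. All 10 are named in every comparison, with up to 4 called genes per list of smallest adjusted p, TNFRSF1A, TNFRSF1B, NFKB1, NFKB2, RELA, REL, MAP3K8, ZFP36, DUSP6 and EGR1, and the 3 genes most like TNF, TNFAIP3 and TRAF1. LTB, LST1 and ART3 were chosen after their values were seen. Alternatives were a pseudocount of 1 CPM, a mean of at least 1 CPM, other scalings (library totals, median of ratios), voom, no trend or robust options, only the groups compared, a replicate block, and leaving out each library.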

Additional observations from a re-analysis of the deposited data

Results flagged for a closer look

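The highest CXCL10 library of OCIAML-3 DMSO stood far from the other 3, at log2 CPM -2.68. It is a single read. Of 46 groups of 4 libraries checked, 1 had such a library. Chance flags about 1 in 20 for continuous values, a rate that does not hold here, where the other libraries held 0 reads.

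The response to RMC-7977 differed between the lines (OCIAML-3 minus Molm-14, limma adjusted p below 0.05) in 10 of 16 tests over 8 genes, where 38.7% of all genes did so at 2 h and 65.4% at 24 h. By time these were 4 of 8 genes at 2 h and 6 of 8 at 24 h, counts near the shares of all genes. At 2 h the differences were 1.46 for NFKBIZ, 1.04 for TNFAIP3, 0.39 for TNF and 0.38 for NFKBIA. At 24 h they were -1.70 for TNFAIP3, -0.98 for CXCL8, -0.74 for TNF, -0.54 for RELB, 0.61 for NFKBIA and 0.31 for NFKBIZ. For TNFAIP3 and TNF the sign of the difference was positive at 2 h and negative at 24 h. These tests share the DMSO libraries of each line. At 24 h, 3 of 8 interferon genes were also called higher in this difference, where 8.09% of all genes were, and their part in these differences was not tested.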

How the results depend on the processing

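Of 2913 values recomputed under alternatives, 2322 for single genes and 545 counts kept their direction and call, or stayed within 1.5 times. With 1 CPM added before the log, which shrinks genes with few reads by construction, 2 genes fell in Molm-14 at 2 h, 1 rose there at 24 h, and 1 fell between 2 and 24 h in OCIAML-3. Under it 1 gene was called lower in the difference between lines at 2 h and 1 higher and 2 lower at 24 h, the 24 h differences of IL1B and TRAF1 reversed (-0.41 and 1.22), and TNF between 2 and 24 h in OCIAML-3 was -0.85. Under voom 2 genes fell between 2 and 24 h in Molm-14 (the cause was not tested). Changes near 0 reversed under library totals (TNF between 2 and 24 h in Molm-14, 0.05; RELB difference at 2 h, 0.01; TRAF1 difference at 24 h, 0.03) and median-of-ratios scaling (TNF, 0.02). Library totals moved the median of all genes by 0.17 in OCIAML-3 at 24 h, and by 0.1 or less elsewhere. Leaving out single libraries gave 1 to 2 genes called higher in the 2 h difference and 1 to 2 called lower in the 24 h difference. It also reversed values near 0: TRAF1 in Molm-14 at 2 h (-0.11 to 0.48), TNF between 2 and 24 h in Molm-14 (-0.12 to 0.04), the 2 h differences of IL1B (-0.44 to 0.08) and RELB (-0.12 to 0.02), and the 24 h difference of TRAF1 (-0.38 to 0.20).

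With the replicate number as a block, no call changed: 5 genes fell in Molm-14 at 2 h and TNF was at -4.18. Equal numbers showed no closer match of libraries: same-number and different-number pairs both had a median r of 0.01. Among 22 same-number pairs 8 correlated above 0.1 (r from -0.48 to 0.38), and 5 of 23 libraries correlated best with their own number. Whether equal numbers mark a shared culture or day is not stated, and these correlations cannot decide it. CXCL10 and TRAF1 in Molm-14 are limited by depth, with 3 to 81 reads per group.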
